A study of Mus musculus with 6 samples.

Results

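Transcripts of 10 genes that lengthen, desaturate or activate long-chain fatty acids were measured in liver of male C57BL/6NJ mice. The genes were taken by symbol: the desaturase genes Fads1, Fads2, Fads3 and Scd2, the elongase genes Elovl1, Elovl2, Elovl3, Elovl5 and Elovl7, and the acyl-CoA synthetase gene Acsl4. All 10 were present among the 24982 genes of the count tables and all 10 were among the 12949 genes tested. Elovl7 passed the filter on low counts through the high fat high sugar libraries alone. PolyA RNA was sequenced from 3 liver samples labelled high fat plus high sugar diet (HFHS) and 3 labelled chow diet. The series text gives 54 weeks on either diet, the HFHS mice having sugar in their water, in a model of fatty liver inflammation that goes on to liver cancer. No genetic change is named for any sample, and the labels do not say whether a tumour was part of the sampled liver.

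Mammals cannot make linoleic and alpha-linolenic acid, and liver turns these dietary fats into arachidonic and docosahexaenoic acid in the endoplasmic reticulum. Fads2 encodes the enzyme of the first desaturation, Elovl5 lengthens its product, Fads1 encodes the next desaturase, and Elovl2 makes the longest polyunsaturated chains. Elovl1, Elovl3 and Elovl7 act mainly on saturated and monounsaturated chains, Scd2 is a stearoyl-CoA desaturase that is low in adult mouse liver, where Scd1 dominates, and Acsl4 prefers arachidonic acid. Sterol regulatory element binding protein, encoded by Srebf1, is a known activator of Fads1, Fads2, Elovl5, Elovl6 and Scd1.

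Gene counts ranged from 17647882 to 20585366 in the HFHS libraries and from 16565335 to 20005873 in the chow libraries. The first principal component held 70.7% of the variance and separated the diets, and HFHS replicate 2 stood apart from its group, with a Pearson r across genes of 0.961 and 0.957 to HFHS replicates 1 and 3, against 0.982 between those. The HFHS diet was followed by 1428 genes higher and 468 lower of 12949 by edgeR's quasi-likelihood test at a Benjamini-Hochberg threshold of 0.05, and 75.3% of calls were rises. Scaling by library size alone moved the median of all genes up by 0.27 on the log2 scale and gave 90.6% rises. Hepatocyte markers headed by albumin (Alb) summed to 81020 to 130393 CPM (counts scaled to a common library size) in HFHS and 137374 to 163912 CPM in chow. Of these 15 markers 0 passed by edgeR, with 5 at an unadjusted p under 0.05 and 5 called lower by DESeq2. In whole tissue, fewer cells of a type and less RNA per cell cannot be told apart.

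The promoters of Fads2 and Elovl5 are shown because Elovl5, which acts just after Fads2, was the gene nearest to Fads2 in its levels across the 6 libraries. Each run covers 250 bases before and 50 after the start that RefSeq annotates on build GRCm38.p6, read 5′ to 3′ on the strand of the gene. Capitals mark a match on either strand to the E-box CACGTG, the CCAAT box CCAAT or the sterol regulatory element TCACNCCAC, and no matches overlapped.
Fads2, chr19:10101454-10101753, minus strand: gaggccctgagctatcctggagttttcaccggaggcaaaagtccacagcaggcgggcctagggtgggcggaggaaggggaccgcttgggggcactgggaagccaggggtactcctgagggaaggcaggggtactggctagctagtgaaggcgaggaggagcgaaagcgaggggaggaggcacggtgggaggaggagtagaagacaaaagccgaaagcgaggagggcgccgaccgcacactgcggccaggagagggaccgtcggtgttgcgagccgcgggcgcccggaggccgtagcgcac
Elovl5, chr9:77917115-77917414, plus strand: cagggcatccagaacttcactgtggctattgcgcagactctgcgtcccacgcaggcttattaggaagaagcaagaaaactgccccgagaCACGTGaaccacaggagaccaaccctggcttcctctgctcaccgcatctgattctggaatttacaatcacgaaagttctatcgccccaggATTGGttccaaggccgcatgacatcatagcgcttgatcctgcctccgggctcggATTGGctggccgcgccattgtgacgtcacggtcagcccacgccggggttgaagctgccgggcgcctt
The Elovl5 window held 1 E-box and 2 CCAAT boxes, and the Fads2 window held 0 matches of the 3 motifs. The GENCODE span of Fads2 given with its values starts further upstream than RefSeq's, so 293 of the 300 bases of its window lie inside that span, against 51 for Elovl5. Among all 32851 windows of the table, 7.15% held the E-box, 37.4% the CCAAT box and 1.24% the sterol element. Windows were matched for 7 of the 10 genes, Fads1, Scd2 and Elovl3 being the others.

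Of the 10 genes, Scd2 alone rose and the other 9 did not pass. By edgeR 0 fell, with 0 at an unadjusted p under 0.05, and DESeq2 and limma-voom also called 0 lower, with 1 (Elovl3) at an unadjusted p under 0.05 by each. DESeq2 gave no p for Elovl7. Among all tested genes 11% were called higher and 3.61% lower. The median log2 fold change of the 10 genes was 0.58, against -0.02 over all tested genes, and Elovl7 enters that median after passing the filter through HFHS. Both diets were fully separated in 3 genes with HFHS above chow (Fads3, Scd2 and Elovl7) and in 1 with HFHS below chow (Elovl3), which held for 21.5% and 18% of all tested genes, 39.5% in all.

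**Figure D1:**
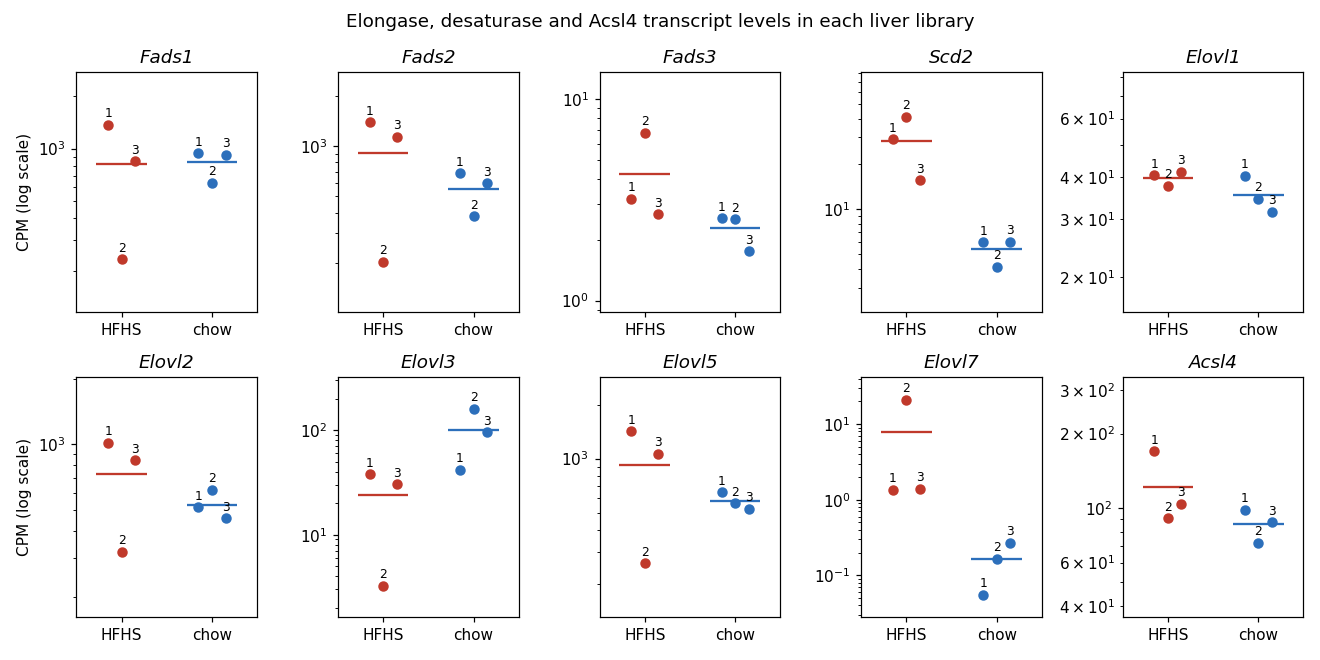
CPM of each of the 10 genes (log axis, a range of its own per panel) in HFHS samples (red, left) and chow samples (blue, right); points are libraries with their replicate number and lines are group means. The 3 HFHS points of Scd2 lie above all chow points, and HFHS replicate 2 is the lowest HFHS point for Fads1, Fads2, Elovl1, Elovl2, Elovl3, Elovl5 and Acsl4 and the highest for Fads3, Scd2 and Elovl7.

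Fads2, the gene of the rate-limiting first desaturation (chromosome 19, 10062765 to 10101746, GRCm38), was at 1389, 203 and 1132 CPM in HFHS replicates 1, 2 and 3, against 686, 380 and 599 CPM in chow replicates 1, 2 and 3. HFHS replicates 1 and 3 lay above every chow library and HFHS replicate 2 below every one, so the groups overlapped. The means were 908 ± 624 CPM in HFHS and 555 ± 158 CPM in chow (SD, n = 3 each), with a log2 fold change of 0.71 ± 0.64 (SE; edgeR, Benjamini-Hochberg adjusted p = 0.491) and a 95% interval of -0.82 to 2.24. Against the chow mean, Fads2 was 2.50-fold in HFHS replicate 1, 0.365-fold in replicate 2 and 2.04-fold in replicate 3.

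Elovl5, which lengthens the product of that step (chromosome 9, 77917364 to 77984519), was at 1422, 261 and 1064 CPM in HFHS, against 648, 563 and 527 CPM in chow. The order of the HFHS libraries was that of Fads2, with replicate 2 below every chow library and the others above. Its log2 fold change was 0.66 ± 0.54 (SE; edgeR, Benjamini-Hochberg adjusted p = 0.442), with a 95% interval of -0.62 to 1.94.

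Elovl2, the elongase of the longest polyunsaturated chains (chromosome 13, 41182381 to 41220405), was at 1018, 321 and 844 CPM in HFHS, against 513, 616 and 458 CPM in chow. Here too replicates 1 and 3 of HFHS exceeded all chow libraries and replicate 2 was below all of them. The log2 fold change was 0.46 ± 0.40 (SE; edgeR, Benjamini-Hochberg adjusted p = 0.464), with a 95% interval of -0.47 to 1.39.

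Fads1, the second desaturase of the route (chromosome 19, 10182888 to 10196877), was at 1366, 234 and 844 CPM in HFHS, against 941, 638 and 924 CPM in chow. HFHS replicate 3, which was above the chow range for Fads2, Elovl5 and Elovl2, lay within it for Fads1. Its log2 fold change was -0.03 ± 0.56 (SE; edgeR, Benjamini-Hochberg adjusted p = 0.975) with a 95% interval of -1.37 to 1.30, and the sign turned positive under upper-quartile scaling (0.04), library size alone (0.16), and without chow replicate 1 (0.05), chow replicate 3 (0.04) or HFHS replicate 2 (0.42).

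Without HFHS replicate 2, edgeR called Fads2 (log2 fold change 1.19, Benjamini-Hochberg adjusted p = 0.022), Elovl5 (1.11, adjusted p = 0.00785) and Elovl2 (0.82, adjusted p = 0.0219) higher, and Fads1 (0.42) did not pass at an adjusted p of 0.340. In that fit 9.42% of 13008 tested genes were called higher. Together with Scd2 and Elovl7 this made 5 of the 10 genes, Elovl7 having entered the test through its HFHS counts. Without HFHS replicate 1 the log2 fold changes of Fads2, Elovl5 and Elovl2 were 0.27, 0.20 and 0.14. They did not pass (edgeR, Benjamini-Hochberg adjusted p = 0.819, 0.838 and 0.849). Without HFHS replicate 3 they were 0.51, 0.53 and 0.33 and did not pass (adjusted p = 0.675, 0.602 and 0.648 by edgeR). In HFHS replicate 2 the hepatocyte marker sum was the lowest of the 6 libraries, at 81020 CPM, and the macrophage marker sum the highest, at 2096 CPM. The part of these values in the low levels of the desaturases and elongases was not tested.

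**Figure D2:**
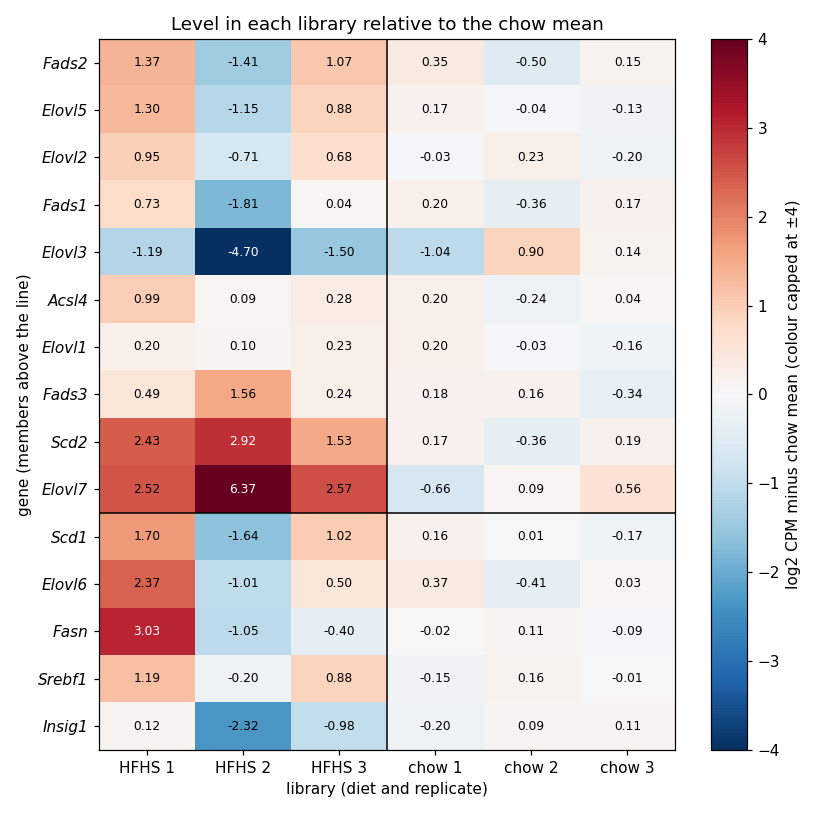
Log2 CPM of each gene (rows) less its mean over the chow samples, by library (columns, HFHS left of chow), with a prior count of 2 in the logarithm; red is above and blue below the chow mean. Fads2, Elovl5, Elovl2 and Scd1 are positive in HFHS replicates 1 and 3 and negative in HFHS replicate 2, while Scd2 is positive in all 3 HFHS samples (2.43, 2.92 and 1.53).

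The Fads1 to Fads2 ratio separated the diets, with fewer Fads1 reads per Fads2 read after HFHS. Fads1 counts were 98.4%, 115% and 74.6% of Fads2 counts in HFHS replicates 1, 2 and 3, against 137%, 168% and 154% in chow replicates 1, 2 and 3. No HFHS library reached the lowest chow value, although Fads2 itself ranged from 203 to 1389 CPM in HFHS. The log2 ratio was -0.08 ± 0.32 in HFHS and 0.61 ± 0.15 in chow (SD, n = 3 each), a difference of -0.69. Its exact two-sided permutation p was 0.1, the smallest that 3 against 3 can give, and 0.25 after Benjamini-Hochberg adjustment over the 5 ratios compared. Leaving out each library in turn kept the difference between -0.83 and -0.52.

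The ratio of Elovl2 to Elovl5 did not separate the diets. Elovl2 counts were 71.6%, 123% and 79.4% of Elovl5 counts in HFHS and 79.2%, 109% and 86.9% in chow, and the groups overlapped. The difference of the log2 ratio was -0.04 (exact permutation p = 1), with an SD of 0.41 in HFHS and 0.24 in chow (n = 3 each).

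**Figure D3:**
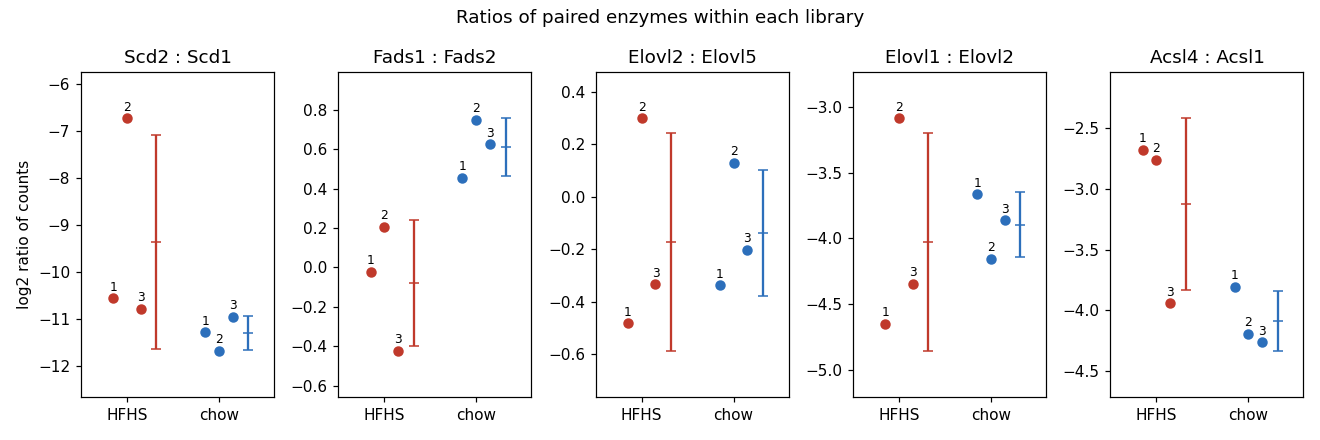
Log2 ratio of counts of paired genes within each library, HFHS (red, left) and chow (blue, right), with replicate numbers; bars are the mean ± SD of 3 libraries and each panel has its own axis. The HFHS points lie below all chow points for Fads1 to Fads2 (-0.42 to 0.21 against 0.46 to 0.75) and above them for Scd2 to Scd1, and overlap with chow in the other 3 panels.

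Scd2, a stearoyl-CoA desaturase that makes monounsaturated fats and is best known from brain and from early life (chromosome 19, 44293674 to 44306864), rose. It was at 29.1, 40.9 and 15.5 CPM in HFHS replicates 1, 2 and 3, against 6.01, 4.12 and 6.06 CPM in chow replicates 1, 2 and 3. The lowest HFHS sample was above the highest chow sample by more than the whole chow range, and replicate 2, lowest for the polyunsaturated enzymes, was highest for Scd2. Mean CPM was 28.5 ± 12.7 in HFHS and 5.40 ± 1.10 in chow (SD, n = 3 each), 5.29-fold higher. The log2 fold change was 2.41 ± 0.36 (SE; edgeR, Benjamini-Hochberg adjusted p = 0.0127), with a 95% interval of 1.55 to 3.27. It stayed between 2.06 and 2.69 without each library in turn, and the adjusted p by edgeR was 0.0627 without chow replicate 3, a fit in which 0.0301% of all tested genes were called higher. Scd2 kept its call without chow replicates 1 and 2 (5.73% and 2.6% of all genes called higher) and without each HFHS library. Without chow replicate 2 it passed only narrowly, at an adjusted p by edgeR of 0.04997.

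Scd1, the dominant liver desaturase and near Scd2 on chromosome 19 (44394455 to 44407879), was at 44024, 4329 and 27352 CPM in HFHS, against 15067, 13605 and 12043 CPM in chow. It did not pass (edgeR, Benjamini-Hochberg adjusted p = 0.42), but did without HFHS replicate 2 (log2 fold change 1.40, adjusted p = 0.0115). Without HFHS replicate 1 or 3 the log2 fold change was 0.23 and 0.83, and Scd1 did not pass (adjusted p = 0.858 and 0.527 by edgeR). Scd2 counts were 0.0662%, 0.946% and 0.0568% of Scd1 counts in HFHS, against 0.0399%, 0.0303% and 0.0503% in chow, without overlap. The log2 ratio was -9.35 ± 2.28 in HFHS and -11.30 ± 0.37 in chow (SD, n = 3 each; exact permutation p = 0.1, adjusted 0.25), and the difference of 1.95 was 0.63 without HFHS replicate 2. In annotated transcripts 217 of 5461 windows of 50 bases in Scd2 also occur in another gene, 145 of them in Scd1, so an unstated rule for shared reads could move some counts between these genes. The sample with the fewest Scd1 reads in HFHS had the most Scd2 reads. In HFHS replicates 1 and 3 the genes kept the same order, with 852226 and 489601 reads of Scd1 and 564 and 278 of Scd2. The part of shared reads was not tested. The related Scd3 and Scd4 were too low to test, with at most 3 and 9 counts in any library.

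Markers of several other liver cell types also rose in HFHS, not all in the library order of Scd2. The endothelial sum was 444, 385 and 451 CPM in HFHS replicates 1, 2 and 3, against 249 to 314 CPM in chow. It was thus lowest in HFHS where Scd2 was highest. In the same library order the macrophage sum was 1192, 2096 and 1093 CPM and the stellate sum 690, 1266 and 679 CPM. The cholangiocyte sum was 224, 310 and 186 CPM, the lymphocyte sum 9.76, 18.2 and 9.16 CPM. The proliferation sum was 69.6, 70.9 and 62.5 CPM. These sums were, like Scd2, highest in HFHS replicate 2 and lowest in replicate 3, and the endothelial and adipocyte sums were not. Macrophage markers rose in 12 of 12 genes, their summed level being 1093 to 2096 CPM in HFHS and 342 to 491 CPM in chow (11% of all tested genes rose). In the stellate and myofibroblast list 10 of 12 genes rose, summing to 679 to 1266 CPM in HFHS and 240 to 294 CPM in chow. Cholangiocyte genes rose in 6 of 9 tested (186 to 310 CPM in HFHS and 40.5 to 59.9 CPM in chow, most of it Spp1, at 205 ± 52.7 CPM in HFHS and 30.7 ± 11.1 CPM in chow), endothelial genes in 6 of 11, proliferation genes in 6 of 8, lymphocyte genes in 1 of 8 and adipocyte genes in 1 of 5. Without chow replicate 2 the macrophage count was 4, the stellate, cholangiocyte and proliferation counts 3 each and the endothelial count 4, and without chow replicate 3 all 5 counts were 0, with 12, 11, 6, 6 and 7 genes of these lists in turn at an unadjusted p under 0.05 by edgeR. The adipocyte gene that rose was Fabp4 (31.1 ± 16.6 CPM in HFHS and 7.33 ± 1.07 CPM in chow, SD, n = 3 each), which lost its call without each chow library. The median log2 fold change of the 5 adipocyte genes was 1.55. It was -0.57 with limma-voom, -0.43 with the replicate block and -0.96 without HFHS replicate 3, and positive in the other settings. The 9 listed summed to 137, 87.8 and 421 CPM in HFHS replicates 1, 2 and 3, against 75.7 to 126 CPM in chow. Of the defining adipocyte genes, Adipoq and Plin1 had 0 counts in each HFHS library and at most 3 and 1 in a chow library. Lep had 0 in all 6 libraries. Which cells carried Scd2 was not measured, and the part of these markers in its rise was not tested. By the smallest root mean square difference over the 6 libraries, in log2 CPM less the chow mean, the genes most like Scd2 were Ltbp1, which encodes a latent TGF-beta binding protein (0.14), Cybb, a subunit of the phagocyte oxidase (0.19), and the lysophospholipid acyltransferase gene Lpcat2 (0.19), out of 10656 compared. For Fads2 they were Elovl5 (0.27), Scd1 (0.31) and Cyp17a1 (0.36), a steroid hydroxylase gene.

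Elovl1, a widely expressed elongase of saturated very long chains (chromosome 4, 118428093 to 118432953), was nearly level. It was at 40.5, 37.7 and 41.5 CPM in HFHS, against 40.4, 34.5 and 31.5 CPM in chow. The SD of the HFHS samples, as a share of their mean, was smallest for Elovl1 among the 10 genes, and replicate 2 was close to the others. Its log2 fold change of 0.17 ± 0.12 (SE; edgeR, Benjamini-Hochberg adjusted p = 0.372) had a 95% interval of -0.11 to 0.45. The value depended on scaling, at 0.26 with upper-quartile scaling and 0.43 with library size alone (adjusted p = 0.184 and 0.0691 by edgeR). In the latter setting the unadjusted p was 0.0141, and the median of all tested genes moved up by 0.27. Elovl1 counts were 3.98%, 11.8% and 4.91% of Elovl2 counts in HFHS, against 7.88%, 5.59% and 6.87% in chow (exact permutation p = 0.9). The end of Elovl1 overlaps Cdc20 on the opposite strand, so the 2 genes may share reads if strand was not used in counting.

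Elovl3, an elongase of saturated and monounsaturated chains with a known daily rhythm in mouse liver (chromosome 19, 46131897 to 46135694), was lower in every HFHS sample but did not pass. It was at 37.9, 3.23 and 30.4 CPM in HFHS, against 42.0, 161 and 95.2 CPM in chow. HFHS replicate 1 and chow replicate 1 nearly met, and HFHS replicate 2 was at 0.0325 of the chow mean. The log2 fold change was -2.07 ± 0.90 (SE; edgeR, Benjamini-Hochberg adjusted p = 0.174), with a 95% interval of -4.25 to 0.12. The time of day at which livers were taken is not given in the sources used here, and its part was not tested. The end of Elovl3 overlaps Pitx3 on the opposite strand.

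Elovl7, a further elongase of saturated chains (chromosome 13, 108214404 to 108285683), was present in HFHS and near the floor in chow. Counts were 26, 543 and 25 in HFHS replicates 1, 2 and 3, against 1, 3 and 4 in chow, or 1.34, 20.9 and 1.40 CPM against 0.0556, 0.165 and 0.269 CPM. HFHS replicate 2 held 91.4% of the HFHS counts. The ratio of summed counts, per effective library size, was 59.9 (95% exact interval 30.2 to 139, counting error only) and 8.73 (4.11 to 21.3) without HFHS replicate 2. The log2 fold change of 5.60 ± 1.58 (SE) missed the threshold (edgeR, Benjamini-Hochberg adjusted p = 0.0629). It passed when HFHS replicate 1, 2 or 3 was left out, at 6.09, 3.07 and 6.08, in fits where 9.02%, 9.42% and 12.6% of all genes were called higher. It did not pass without any of the chow libraries, at adjusted p of 0.154 to 0.168 by edgeR. With no filter on low counts the adjusted p by edgeR was 0.133, and with limma-voom it was 0.186. Because Elovl7 entered the test through the HFHS libraries where it was high, its passes are no independent support for a rise.

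Fads3, a relative of Fads1 and Fads2 that acts on sphingoid bases and some trans fats (chromosome 19, 10041569 to 10060110), was low throughout. It was at 3.20, 6.81 and 2.68 CPM in HFHS, against 2.56, 2.53 and 1.75 CPM in chow. The groups did not overlap, though HFHS replicate 3 and chow replicate 1 lay close together. Its log2 fold change was 0.90 ± 0.39 (SE; edgeR, Benjamini-Hochberg adjusted p = 0.16) and 0.37 without HFHS replicate 2.

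Acsl4, which activates arachidonic acid for use in phospholipids (chromosome X, 142317993 to 142390535), was at 169, 90.7 and 104 CPM in HFHS, against 98.1, 71.9 and 87.3 CPM in chow. Only HFHS replicates 1 and 3 were above all chow samples. The log2 fold change was 0.50 ± 0.25 (SE; edgeR, Benjamini-Hochberg adjusted p = 0.209), and 0.75 with library size alone, where it passed at an adjusted p of 0.043. That setting moved the median of all tested genes up by 0.27 and called 1928 of 12949 higher. Acsl4 counts were 15.6%, 14.7% and 6.51% of those of Acsl1, the main hepatocyte synthetase, in HFHS, against 7.15%, 5.46% and 5.21% in chow. HFHS replicate 3 lay inside the chow range (exact permutation p = 0.2).

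Per kilobase of annotated exon the levels fell into tiers. In HFHS, Fads2 averaged 276 ± 189 CPM per kilobase, Elovl5 260 ± 169, Elovl2 184 ± 91.6 and Fads1 169 ± 118 (SD, n = 3 each). The same genes were at 168 ± 47.8, 165 ± 17.7, 133 ± 20.3 and 173 ± 35.3 CPM per kilobase in chow. Within either diet the libraries of these 4 genes overlapped in level. Elovl3 was at 12.1 ± 9.24 CPM per kilobase in HFHS, beside Elovl1 (14.6 ± 0.712) and Acsl4 (22.4 ± 7.80), against 50.4 ± 30.2 in chow, where it came next after those 4. Chow levels of Elovl1 and Acsl4 were 13.0 ± 1.68 and 15.9 ± 2.43 CPM per kilobase. The lowest were Scd2 at 5.22 ± 2.33 in HFHS and 0.988 ± 0.202 in chow, Fads3 at 1.12 ± 0.593 and 0.601 ± 0.121, and Elovl7 at 1.96 ± 2.81 and 0.0407 ± 0.0266 CPM per kilobase.

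Among the other elongases and desaturases, 4 of 8 were tested and 0 passed by edgeR, DESeq2 or limma-voom, with 0 at an unadjusted p under 0.05. Elovl6, the elongase of palmitate, was at 1201, 115 and 328 CPM in HFHS, against 301, 176 and 238 CPM in chow. Like Fads2 it was lowest of all in HFHS replicate 2, but HFHS replicate 1 stood far above replicate 3. The fatty acid synthase gene Fasn followed HFHS replicate 1 alone, at 5570, 329 and 516 CPM in HFHS, against 670, 736 and 638 CPM in chow. Of 11 lipogenic targets of sterol regulatory element binding protein 0 passed by edgeR or limma-voom, with 1 at an unadjusted p under 0.05 by edgeR. DESeq2 called 0 of the 8 for which it gave a p, Fasn and Pnpla3 being among the 3 without one. The gene with the low edgeR p was Pnpla3, a lipid droplet protein gene, at 134, 4.81 and 5.81 CPM in HFHS, against 2.50, 0.935 and 0.943 CPM in chow. The median log2 fold change of the 11 genes was 0.84, and -0.33 without HFHS replicate 1, a fit that called 1 higher and 1 lower. Without HFHS replicate 2 it was 1.27, with 1 called higher.

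Among 12 regulators 0 passed by edgeR, with 3 at an unadjusted p under 0.05, and DESeq2 called 1 lower. Srebf1 was at 702, 267 and 566 CPM in HFHS, against 277, 342 and 306 CPM in chow, with replicates 1 and 3 of HFHS above the chow samples and replicate 2 below them, as for Fads2. Its log2 fold change was 0.73 ± 0.33 (SE; edgeR, Benjamini-Hochberg adjusted p = 0.177), and 1.05 without HFHS replicate 2 (adjusted p = 0.00686). Without HFHS replicate 1 or 3 it was 0.43 and 0.64, and Srebf1 did not pass (adjusted p = 0.420 and 0.286 by edgeR). Insig1, which holds that protein back in the endoplasmic reticulum, was at 324, 59.7 and 152 CPM in HFHS, against 260, 320 and 323 CPM in chow. The nuclear receptor genes Ppara and Nr1h3 had log2 fold changes of -0.29 ± 0.19 and -0.13 ± 0.11 (SE).

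Of 6 genes that complete each round of elongation 1 rose, where 11% of all tested genes were called higher. The gene was the dehydratase gene Hacd4 (2.05 ± 0.47 on the log2 scale, SE; edgeR, Benjamini-Hochberg adjusted p = 0.0289). Hacd4 lost its call with limma-voom (adjusted p = 0.0648) and without each chow library (0.0797 to 0.0955 by edgeR). It was low, at 4.08 ± 2.41 CPM in HFHS and 0.995 ± 0.254 CPM in chow (SD, n = 3 each). The ketoreductase gene Hsd17b12 was at 218, 134 and 238 CPM in HFHS, against 239, 240 and 215 CPM in chow, and the reductase gene Tecr had a log2 fold change of -0.49 ± 0.27 (SE). Electron donors of the desaturases passed in 0 of 5 tested genes by edgeR, DESeq2 or limma-voom. At an unadjusted p under 0.05 there were 0 by edgeR and 1 by DESeq2. The 6 listed summed to 1488 to 2236 CPM in HFHS and 2519 to 2872.5 CPM in chow, without overlap. The cytochrome gene Cyb5a averaged 948 ± 235 CPM in HFHS and 1384 ± 234 CPM in chow (SD, n = 3 each). Other long-chain acyl-CoA synthetases passed in 0 of 6 by edgeR, with 1 at an unadjusted p under 0.05 and 1 called lower by DESeq2. Peroxisomal chain shortening genes, which finish docosahexaenoic acid, passed in 0 of 9 by edgeR, DESeq2 or limma-voom, with 0 at an unadjusted p under 0.05.

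Some genes that use the products rose, and 11% of all tested genes were called higher. Of 7 tested genes of phospholipid acyl remodelling 2 rose, Lpcat2 (2.40 ± 0.43, SE) and Lpcat1 (1.75 ± 0.43, SE), and the liver enzyme gene Lpcat3, which places arachidonic acid in phospholipids, had 0.24 on the log2 scale and did not pass. Lpcat1 lost its call with limma-voom (adjusted p = 0.0553), without HFHS replicate 2 (0.0582 by edgeR) and without each chow library (0.0612 to 0.130). Lpcat2 lost its call without chow replicates 2 and 3 (0.0614 and 0.0812 by edgeR). By edgeR 0 of the 7 fell and DESeq2 called 1 lower. In eicosanoid synthesis 4 of 13 tested genes rose, and 0 were lower by edgeR, DESeq2 or limma-voom. The median log2 fold change of the 13 was 1.06, but the summed level of the 17 listed genes was lower. It was 721 to 1123 CPM in HFHS and 1142 to 1278 CPM in chow, without overlap. The 4 genes that rose were Ptgs1, a cyclooxygenase gene (26.8 ± 3.02 CPM in HFHS and 12.9 ± 0.438 CPM in chow, SD, n = 3 each), the thromboxane synthase gene Tbxas1 (log2 fold change 2.20 ± 0.32, SE), the arachidonate-releasing phospholipase gene Pla2g4a (1.88 ± 0.32, SE) and the prostaglandin D synthase gene Hpgds (log2 fold change 3.02). In chow Tbxas1 and Pla2g4a averaged 2.00 and 1.42 CPM. With Ptgs1 they made up little of the sum, which rests on more abundant listed genes and does not show a fall across the list. Without chow replicate 2 the count was 2 and without chow replicate 3 it was 0, with 5 at an unadjusted p under 0.05 in both fits. The macrophage markers given above were also higher in HFHS, and their part was not tested. Hpgds was named after its value was seen.

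**Figure D4:**
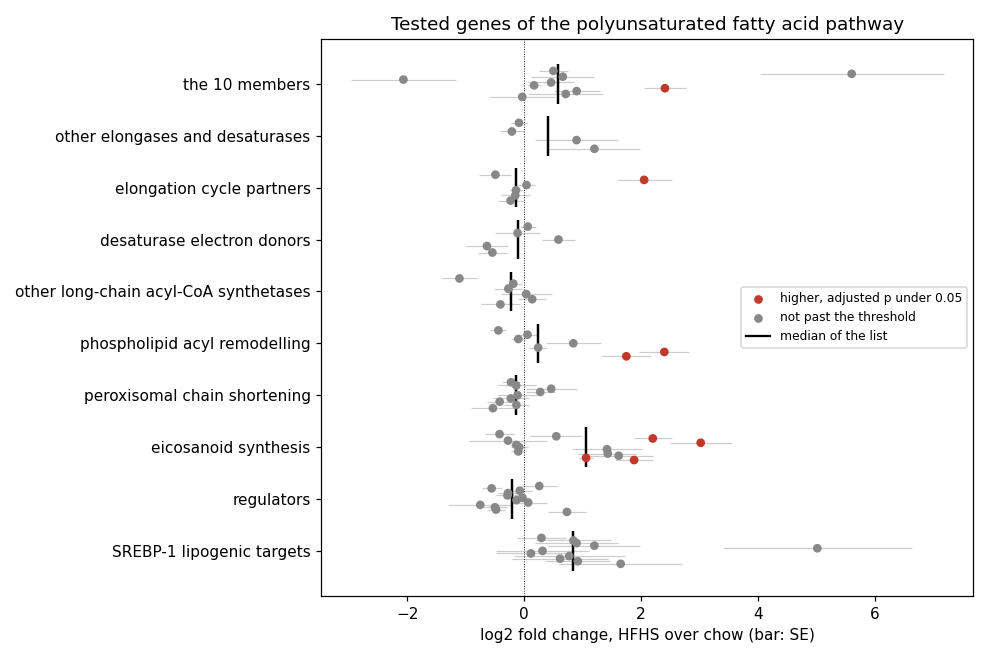
Log2 fold change, HFHS over chow, of each tested gene (points, bars are SE) in the 10 member genes and 9 other gene lists of the pathway; black lines are list medians and red points are genes past the threshold. Red points are Scd2 among the members, Hacd4, Lpcat1 and Lpcat2, and 4 eicosanoid genes, and 0 genes are past the threshold on the lower side.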

How the data were processed

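Liver polyA RNA of male C57BL/6NJ mice was sequenced, with 3 HFHS and 3 chow samples, grouped by the diet in their title. Per the submitters' processing notes, reads were aligned with STAR to mm10; the counter, its annotation, strand setting and treatment of shared reads are not stated in the labels or headers. Libraries were made with a dUTP stranded kit, per the labels' protocols. The values are whole-number counts per gene as deposited, not normalised. Rows for reads outside genes (7.74% to 10.6% of all counts) and for ambiguous reads (0.615% to 0.862%) were left out.

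Genes were filtered with filterByExpr (minimum count 10), which left 12949 of 17877 genes with a count, scaled by TMM and fitted with the robust quasi-likelihood model of edgeR (edgeR 4.0.16, limma 3.58.1, DESeq2 1.42.0, R 4.3.3) with no covariate. P-values were adjusted across the whole tested table by Benjamini-Hochberg, with a threshold of 0.05. The standard error is the log2 fold change divided by the square root of F, and intervals use its t distribution. CPM uses TMM-scaled sizes, and 3 counts, the floor, are 0.115 to 0.202 CPM. Count intervals and the floor reflect counting error alone. The labels do not say that each sample is its own animal, so p-values reflect only the spread among the 6 samples, which may be technical. Any pair of libraries within a diet differed by more than sampling noise (chi-square per gene of at least 24.2). Diet and any difference in handling cannot be told apart.

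Ratios of counts (0.5 added) were compared by an exact permutation test. Exon lengths and gene spans are from GENCODE M21 (GRCm38, the assembly of mm10). The 10 members and the 17 other lists (172 symbols, all found, 1 by an older symbol) were chosen with earlier results of these data known. The named genes are the 10 members, 8 fixed genes, those of the 5 ratios, the 3 genes of smallest p in a list where the text describes them, and the 3 nearest to Scd2 and to Fads2 among named genes with a mean count of at least 50. Other list members are examples chosen after their values were seen. Alternatives were RLE, upper-quartile and library-size scaling, DESeq2, limma-voom, no filter, a replicate block and leaving out each library.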

Additional observations from a re-analysis of the deposited data

How the results depend on the processing

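Of 129 alternative values of the 10 log2 fold changes that came with a p, 115 kept their direction and their side of the threshold, 8 newly passed, 1 no longer passed and 5 changed sign. All 5 sign changes were of Fads1. They came at 0.0391 with upper-quartile scaling, 0.16 with library size alone, and 0.05, 0.04 and 0.42 without chow replicate 1, chow replicate 3 and HFHS replicate 2. Without each library in turn, Fads1 ranged from -0.63 to 0.42. Genes called lower numbered 200 with library size alone and 974 with DESeq2, against 468 in the main test. Among the 10 genes, 2 were called higher with library size alone (Scd2 and Acsl4), where 1928 of all 12949 tested genes were. Without each library in turn, 4 to 1664 genes were called higher, 2 to 772 lower and 0 to 5 of the 10 members higher. The 0 came without chow replicate 3, with 2 members at an unadjusted p under 0.05. RLE scaling, upper-quartile scaling, limma-voom and no filter each called Scd2 alone, and DESeq2 called Scd2 alone of 9 members, giving no p for Elovl7.

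The labels give same-numbered libraries of the diets no link beyond the number. Their deviations from the diet means correlated at -0.25, -0.17 and 0.03, which with 3 libraries per diet cannot show whether they were paired. With the replicate block 961 genes were higher and 282 lower, and 2 members were higher, Scd2 and Elovl7 (5.13 on the log2 scale). As a block, paired ratios gave the same differences, and 3 pairs cannot go below an exact p of 0.25.

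With 3 libraries per diet and HFHS replicate 2 apart from its group, intervals of Fads1, Fads2, Elovl2, Elovl5 and Elovl3 are wide, and a 2-fold change of Fads2 lies inside its interval. Depth limits Elovl7 in chow, at 1 to 4 counts per library.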

Other observations

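The genes nearest to Elovl3 over the 6 libraries, a search added after its values were seen, were Slc22a28, an organic anion transporter family gene (root mean square difference 0.45 on the log2 scale), Trhde, a peptidase gene (0.53), and the sulfotransferase gene Sult5a1 (0.55). Relative to the chow mean, Slc22a28 was at -0.86, -4.34 and -0.99 in HFHS replicates 1, 2 and 3, and Elovl3 at -1.19, -4.70 and -1.50. None of the 3 passed the threshold (edgeR quasi-likelihood, Benjamini-Hochberg adjusted p = 0.232 for Slc22a28).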
